A study of Sus scrofa with 67 samples.

Results

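The oviduct of the pig was compared between day 3 and day 0 of the oestrous cycle across all genes, using the 3 oviduct libraries of each day, 6 of the 66 libraries in the deposited count table. The libraries were taken by their column names, which give the tissue, the day and a number, and they are called library 1, 2 and 3 of their day here. The sample labels number the animals differently, so a column was tied to its tissue and day and not to a single sample. The animals were crossbred Landrace × Yorkshire gilts of similar age that had passed through normal cycles. Day 0 was the first day of oestrous behaviour, no hormone treatment was described in the sources used here, and each gilt gave tissue on 1 day only, so days 0 and 3 hold different animals. The oviduct was sampled from the ampulla, as whole tissue, and poly-A RNA was sequenced. The study collected the endometrium and the ovary as well, at 7 time points from day 0 to day 18, and the question of this comparison is which oviductal genes differ between the onset of oestrus and the first days after it.

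The oviduct carries gametes and early embryos, and the ampulla is where fertilisation takes place. Its lining is made of ciliated cells, which move the oocyte and embryo, and secretory cells, which release the oviductal fluid and its major oestrogen-responsive glycoprotein, OVGP1. Around oestrus the tissue is under high oestrogen. After ovulation the new corpora lutea raise progesterone, which acts through the progesterone receptor, and the embryos pass from the oviduct into the uterus.

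Total counts of the 6 libraries ran from 9650677 to 11573086, so 3 counts correspond to 0.292 to 0.344 CPM, the unit of the count scaled to library size with edgeR's TMM factors. The tissue label was checked against marker genes, scaled over all 66 libraries. OVGP1 was at 14812 to 238957 CPM in the 6 oviduct libraries, 1.33 to 102.3 in the 6 endometrium libraries of the same days and 3.35 to 2123 in the 5 ovary libraries. FOXJ1, the master regulator of motile cilia, was at 1094 to 1519 CPM in the oviduct, 205.8 to 461.5 in the endometrium and 0.272 to 22.4 in the ovary. Markers of ovarian steroid-producing cells were lower in the oviduct libraries than in the ovary and higher than in the endometrium. CYP11A1, which starts steroid synthesis, was at 15.2 to 73.3 CPM in the oviduct, 2.85 to 6.6 in the endometrium and 321.8 to 7146 in the ovary. INHA, an inhibin subunit, was at 0.334 to 47.7 CPM, 0 to 0.265 and 88.1 to 8269 in that order.

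OVGP1 drew more counts than any other gene over the 6 libraries, and its level differed widely between animals of the same day. Scaled over the oviduct libraries, it was at 193176, 53142 and 172341 CPM in libraries 1, 2 and 3 of day 0, and at 175064, 245502 and 15068 CPM on day 3. The days overlapped, with a log2 fold change of 0.06 ± 1.01 (SE, n = 3 libraries per day, adjusted p = 0.9915, edgeR). Library 3 of day 3 was the lowest of the 6 and library 2 of day 3 the highest.

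Across genes, libraries of day 0 resembled each other somewhat more than libraries of day 3 did. The mean Pearson correlation of log2(CPM + 1) was 0.976 ± 0.0057 within day 0 (SD over 3 pairs), 0.965 ± 0.0072 within day 3 and 0.957 ± 0.0122 between the days (SD over 9 pairs). These are correlations across genes, which are not independent replicates, and pairs share libraries. Library 2 of day 3 had a mean correlation of 0.969 with day 0 and 0.959 with day 6. Library 3 of day 3 stood the other way, with 0.947 against day 0 and 0.967 against day 6, and library 1 of day 3 lay between, with 0.956 and 0.957.

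**Figure D1:**
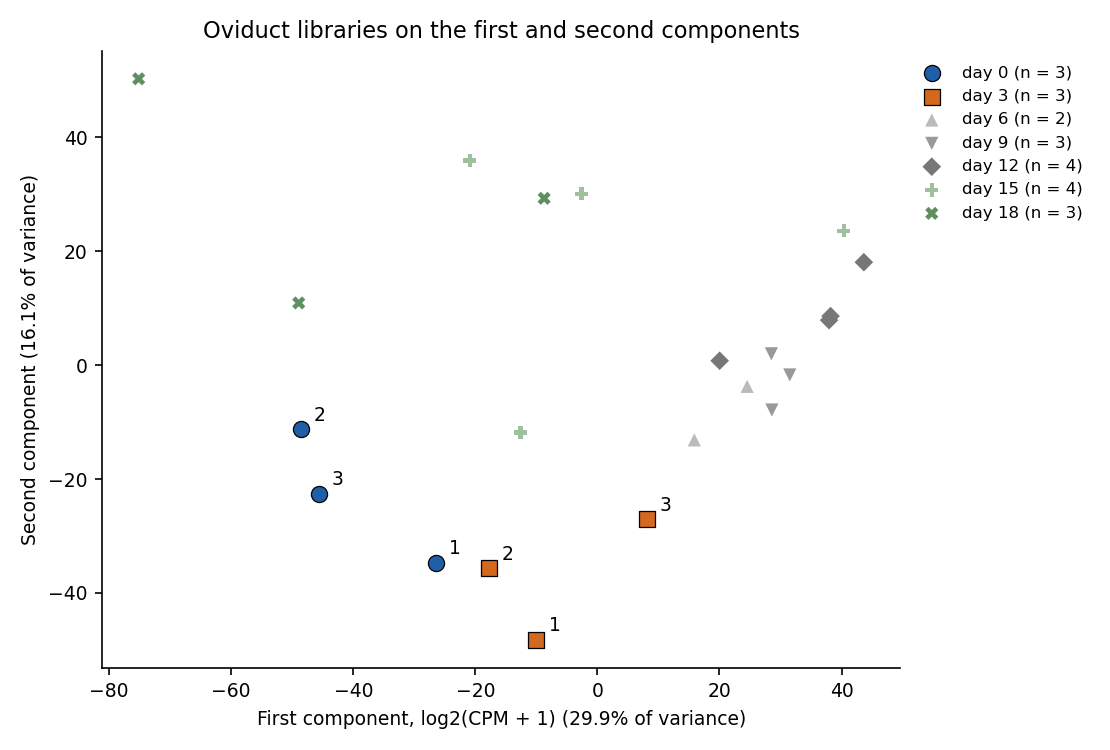
Principal components of log2(CPM + 1) over the 22 oviduct libraries, with the first component (29.9% of the variance) on the horizontal axis, the second (16.1%) on the vertical axis, 1 point per library and the library number beside the points of days 0 and 3. On the first component the day 0 libraries lie from -48.6 to -26.4, the day 3 libraries from -17.7 to 8.17, and the day 6 libraries at 15.9 and 24.5.

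Few genes separated the days clearly enough to be called. Of 15665 genes tested, 47 (0.300%) were differentially expressed (DEGs; edgeR quasi-likelihood test, Benjamini-Hochberg adjusted p under 0.05 over all genes tested): 20 (0.128%) were upregulated on day 3 and 27 (0.172%) were downregulated. At least 2-fold changes made up 40 of them (0.255% of genes tested), 17 upregulated and 23 downregulated, and 9 upregulated and 3 downregulated genes changed at least 8-fold. The median log2 fold change was 1.92 over the upregulated genes and -1.77 over the downregulated genes, beside -0.01 over all genes tested. In all 47 the 3 libraries of one day lay beyond the 3 of the other. That separation alone was common, since 11.3% of all genes had every day 3 library above every day 0 library and 11.0% had every one below. In whole tissue, fewer cells of a type and less RNA per cell cannot be told apart.

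The adjusted p values of the 47 genes lay close to the threshold, from 0.0349 to 0.0491, and the next gene was at 0.0520. Leaving out library 1, 2 or 3 of day 0, or library 1 or 3 of day 3, left 0 genes called by edgeR in each case, with 2005, 1177, 1560, 1411 and 1560 genes at an unadjusted p under 0.05 against 1987 with all libraries. Without library 2 of day 3 the count was 166, and 41 of the 47 were among them. DESeq2 called 297 genes (1.90%), which included all 47, and a fit of the 6 libraries alone called 12, of which 7 were among the 47. The direction of all 47 held in each of these fits except 1 gene that had no value in the fit of 6 libraries.

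**Figure D2:**
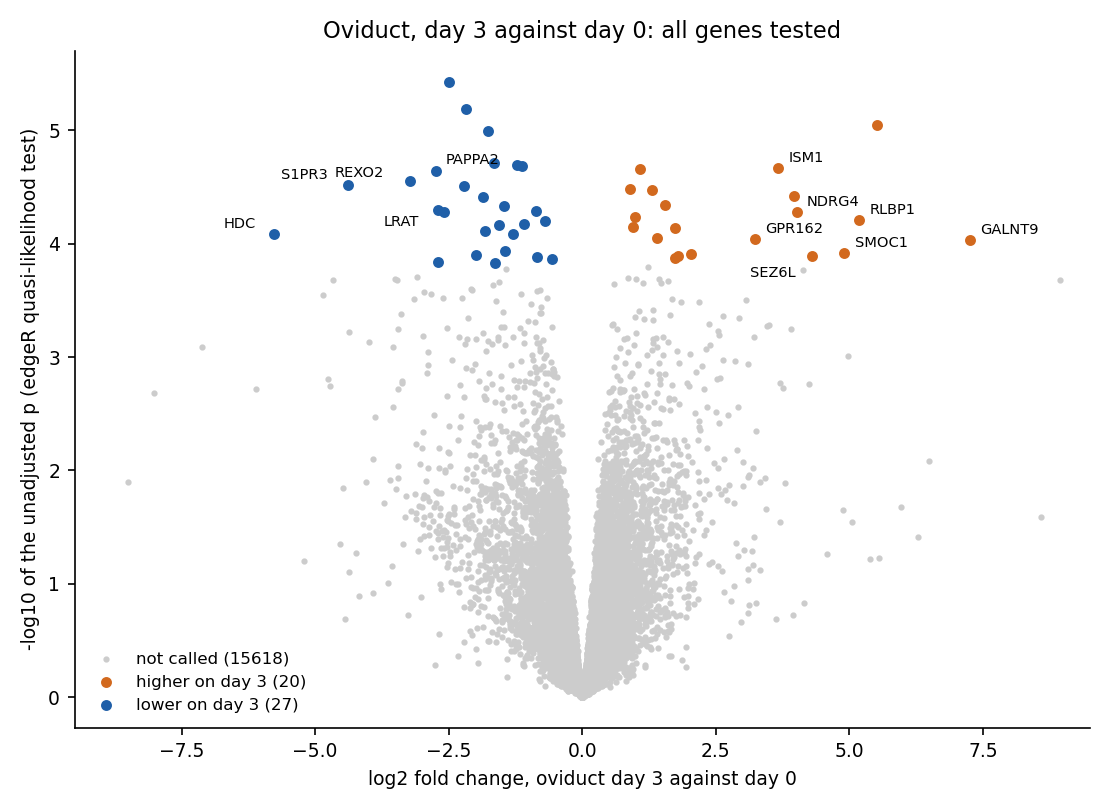
Log2 fold change of day 3 against day 0 (horizontal axis) and -log10 of the unadjusted p of the edgeR quasi-likelihood test (vertical axis) for the 15665 genes tested, 1 point per gene, with 20 called genes higher on day 3, 27 lower and the names of the larger changes. The called genes form a narrow band at the top, and GALNT9 (7.25) and HDC (-5.78) are the outermost of those called.

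Symbols could be given to 31 of the 47 genes, 15 upregulated and 16 downregulated. The upregulated genes with the largest changes coded for a glycosyltransferase, a retinoid carrier, and secreted and membrane proteins. GALNT9 (ENSSSCG00000009738), a transferase of the family that starts mucin-type O-glycosylation, was at 0.573, 0.0973 and 0.208 CPM on day 0 and at 68.9, 2.62 and 63.0 CPM on day 3. Day 0 rests on 1 to 5 counts per library, and libraries 1 and 3 of day 3 were far above library 2. Its fitted log2 fold change was 7.25 ± 1.47 (SE), and the ratio of summed counts, scaled for library size, was 164 (95% exact interval 82.8 to 380, counting error only). Without library 1 of day 0 the fitted log2 fold change was 8.10.

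RLBP1 (ENSSSCG00000001836), which codes for a carrier of retinaldehyde, was at 0.344, 0.195 and 0 CPM on day 0, from 0 to 3 counts a library, and at 4.39, 1.09 and 14.8 CPM on day 3, a count ratio of 39.96 (16.8 to 124). The fitted log2 fold change of RLBP1 was 5.18, and it was 3.87 without library 3 of day 3 and 5.92 without library 1 of day 0. LRAT (ENSSSCG00000008995), the enzyme that stores retinol as retinyl esters, went the other way, from 24.2, 16.6 and 19.5 CPM to 3.35, 4.25 and 1.69 CPM. Its log2 fold change was -2.70 ± 0.52 (SE), and all 3 day 3 libraries lay well below day 0.

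Secreted proteins were represented by ISM1, SMOC1 and ADAMTSL3. ISM1 (ENSSSCG00000007073), isthmin, rose to a similar level in all 3 day 3 libraries, from 5.15, 5.26 and 7.06 CPM on day 0 to 82.4, 55.7 and 85.0 CPM on day 3, a log2 fold change of 3.67 ± 0.65 (SE). SMOC1 (ENSSSCG00000002314), a calcium-binding matricellular protein, was at 0.115, 0.0973 and 0.312 CPM, from 1 to 3 counts, and at 3.35, 1.96 and 11.4 CPM on day 3, a count ratio of 32.8 (13.8 to 102). Its fitted log2 fold change was 4.91, and it was 3.84 without library 3 of day 3 and 5.58 without library 3 of day 0. ADAMTSL3 (ENSSSCG00000001793), a matrix protein without protease activity, rose from 1.37, 2.14 and 2.39 CPM to 4.50, 8.93 and 7.16 CPM, a log2 fold change of 1.79 ± 0.37 (SE).

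Among the genes for membrane and cytoplasmic proteins, library 2 was again the lowest day 3 library in each gene. SEZ6L (ENSSSCG00000009958), a transmembrane protein best known from neurons, was at 1.49, 1.36 and 1.87 CPM on day 0 and 24.8, 4.47 and 64.7 CPM on day 3. NDRG4 (ENSSSCG00000021911), a member of the NDRG family, was at 5.15, 3.31 and 6.65 CPM and then at 111, 9.26 and 124 CPM. GPR162 (ENSSSCG00000000680), an orphan receptor, was at 0.802, 0.681 and 1.35 CPM and then at 4.81, 3.38 and 18.8 CPM. The log2 fold changes were 4.31 ± 0.90, 4.01 ± 0.77 and 3.24 ± 0.65 (SE) in that order. Without library 3 of day 3 those of SEZ6L and GPR162 were 3.21 and 2.10. Over all 20 upregulated genes, library 2 held the lowest of the day 3 values in 16, and over the 27 downregulated genes it held the highest day 3 value in 16. The same share over all genes tested was not counted. Across all genes, library 2 was the day 3 library with the highest mean correlation with day 0 (0.969). These counts are thus not a finding about the called genes.

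The other named upregulated genes had log2 fold changes below 2. SAT1 (ENSSSCG00000012173), which acetylates spermidine and spermine for their breakdown, was at 1444, 764 and 1036 CPM on day 0 and 4393, 2411 and 3963 CPM on day 3, a log2 fold change of 1.73 ± 0.34 (SE). JAK2 (ENSSSCG00000005215), the kinase that carries signals of many cytokine and growth hormone type receptors, was at 13.3, 14.0 and 10.18 CPM and then at 57.2, 30.2 and 23.0 CPM, a log2 fold change of 1.56 ± 0.30 (SE). PBX4 (ENSSSCG00000013933), a homeodomain transcription factor, was at 14.8, 15.7 and 8.31 CPM and at 34.3, 32.9 and 35.7 CPM, so that the 3 day 3 animals were nearly level. SLC27A3 (ENSSSCG00000006569), of the fatty acid transport protein family, rose from 11.1, 8.37 and 10.7 CPM to 29.7, 19.9 and 25.5 CPM. The log2 fold changes of the last pair were 1.41 ± 0.28 and 1.32 ± 0.24 (SE).

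HDC had the largest fall of the named genes. The gene (ENSSSCG00000004644) codes for histidine decarboxylase, which makes histamine, and was at 20.8, 11.8 and 9.25 CPM on day 0 and at 0.314, 0.109 and 0.298 CPM on day 3, where 1 to 3 counts remained per library. Its log2 fold change was -5.78 ± 1.15 (SE), and day 0 was 56.3 times day 3 by summed counts (27.1 to 141). S1PR3 (ENSSSCG00000009580), a receptor for sphingosine-1-phosphate, was at 11.3, 10.7 and 15.8 CPM and then at 0.941, 0.436 and 0.398 CPM, from 4 to 9 counts, a ratio of 21.4 (13.2 to 37.1). In both genes all 3 day 3 libraries were low.

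REXO2 (ENSSSCG00000015056), a nuclease that degrades very short RNAs in mitochondria, was at 139.7, 222.3 and 172.2 CPM on day 0 and 15.3, 20.7 and 21.0 CPM on day 3, a log2 fold change of -3.23 ± 0.59 (SE). PAPPA2 (ENSSSCG00000015512), a protease that releases insulin-like growth factors from their binding proteins, was at 31.8, 48.2 and 68.5 CPM and then at 9.51, 6.76 and 5.87 CPM, a log2 fold change of -2.74 ± 0.49 (SE). Neither gene had a day 3 library near the day 0 range.

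Among genes of cell junctions, membranes and transport, CLDN11 (ENSSSCG00000011747), a tight junction claudin, was at 45.8, 34.4 and 52.8 CPM on day 0 and 13.9, 17.9 and 7.26 CPM on day 3. PROM2 (ENSSSCG00000008118), a protein of membrane protrusions, was at 17.5, 29.7 and 20.9 CPM and then at 4.08, 12.3 and 5.57 CPM, with library 2 nearest to day 0. SLCO4C1 (ENSSSCG00000014182), an organic anion transporter, was at 9.504, 16.3 and 15.2 CPM and then at 4.60, 5.34 and 3.88 CPM. The log2 fold changes were -1.77 ± 0.30, -1.63 ± 0.34 and -1.57 ± 0.31 (SE) in that order, and that of PROM2 was -2.22 without library 2 of day 3. PHYHIP (ENSSSCG00000009621), a binding partner of phytanoyl-CoA hydroxylase, had a log2 fold change of -1.99 ± 0.41 (SE) from 2.91 to 6.03 CPM on day 0.

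ACKR3 (ENSSSCG00000016322), the atypical receptor that takes up CXCL12, was at 72.4, 68.0 and 79.5 CPM on day 0 and 32.3, 25.8 and 21.5 CPM on day 3. PIM1 (ENSSSCG00000001573), a kinase whose gene is a known target of JAK-STAT signalling, was at 46.8, 50.6 and 49.6 CPM and then at 24.8, 20.8 and 14.3 CPM. ID2 (ENSSSCG00000008645), an inhibitor of basic helix-loop-helix transcription factors, was at 30.2, 49.4 and 78.2 CPM and then at 14.4, 14.7 and 15.6 CPM, so that day 0 was spread and day 3 was not. The log2 fold changes were -1.47 ± 0.28, -1.30 ± 0.26 and -1.82 ± 0.36 (SE) in that order.

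**Figure D3:**
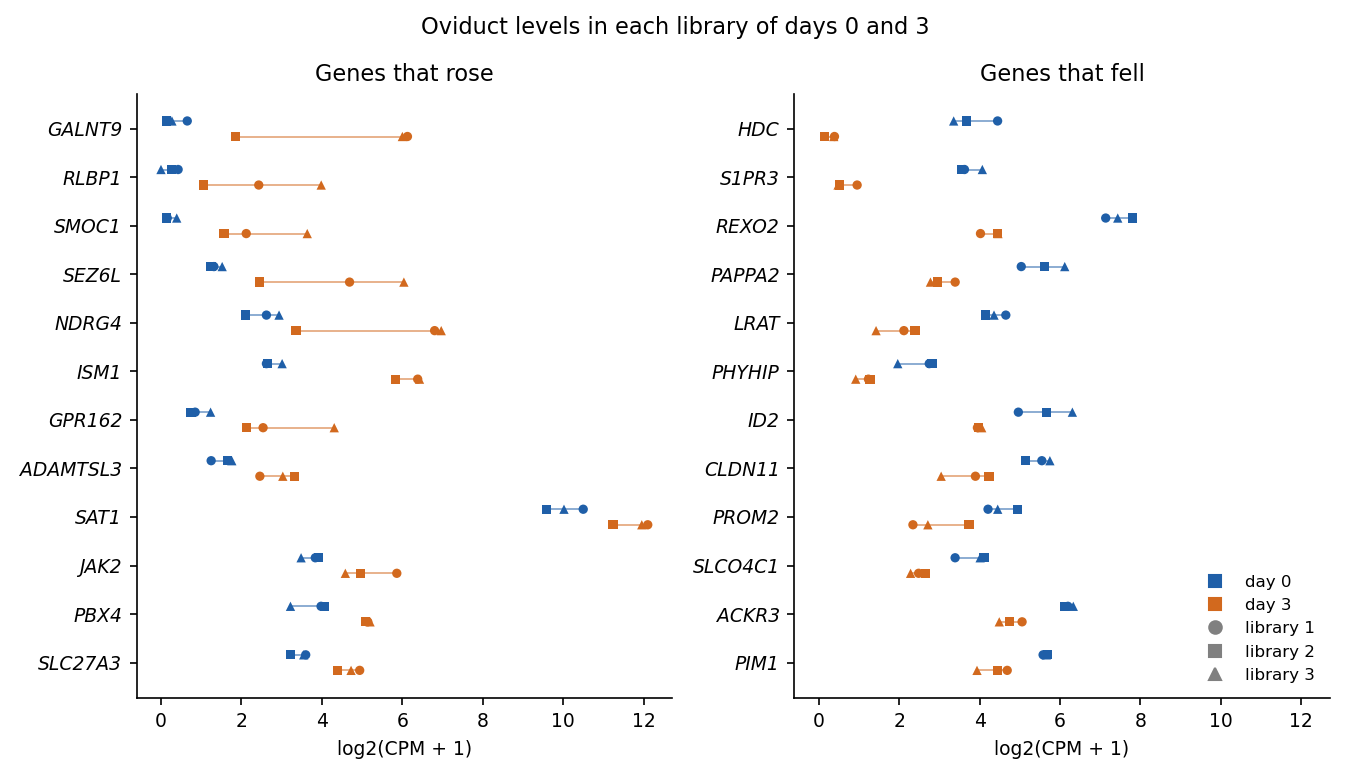
Log2(CPM + 1) of the 12 upregulated and 12 downregulated genes named by rule, 1 symbol per library (circle, square and triangle for libraries 1, 2 and 3), day 0 in blue and day 3 in orange, with a line over the range of each day. The rule admitted only genes whose days do not overlap. GALNT9, NDRG4 and SEZ6L have the widest spread on day 3, with library 2 at the low end.

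The other 7 called genes with a symbol changed by smaller amounts and are named here after their values were seen. KATNBL1, CTTNBP2 and PPTC7, a mitochondrial phosphatase, rose, with log2 fold changes of 1.09 ± 0.19, 0.99 ± 0.19 and 0.90 ± 0.17 (SE). FRAS1, a protein of the epithelial basement membrane, fell by 1.21 ± 0.21 on the log2 scale, from 155.7, 191.2 and 138.0 CPM to 59.5, 76.2 and 73.3 CPM. PPP1R9B, the scaffold protein spinophilin, NR2F6, an orphan nuclear receptor, and the zinc finger gene ZNF629 had log2 fold changes of -0.87 ± 0.17, -0.84 ± 0.18 and -0.70 ± 0.14 (SE).

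The remaining 16 called genes, 5 upregulated and 11 downregulated, had an identifier but no symbol in the reference tables used. ENSSSCG00000027715 was at 0.573, 0.292 and 0.519 CPM on day 0 and 34.0, 14.5 and 16.3 CPM on day 3, a log2 fold change of 5.53 ± 0.91 (SE). ENSSSCG00000011452 was at 15.7, 15.6 and 17.5 CPM on day 0 and at 361.9, 21.7 and 376.3 CPM on day 3, a log2 fold change of 3.96 ± 0.74 (SE). Libraries 1 and 3 of day 3 were thus far above all day 0 libraries and library 2 only just above. These identifiers, and 2 downregulated ones given with the other tissues, were also chosen after their values were seen.

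None of the steroid hormone, protein folding, cell cycle, matrix or cell type genes listed for this tissue was called by edgeR. The lists held 120 distinct symbols in 19 lists. Of these, 87 had an identifier in the table and 84 were tested. The edgeR test called 0 of the 84, 19 were at an unadjusted p under 0.05, beside 12.7% of all genes tested, and the lowest adjusted p was 0.1204. DESeq2 called 2, PGRMC1 (adjusted p = 0.0451) and ACTC1 (adjusted p = 0.0294), against 1.90% of all genes.

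The steroid hormone list of receptors and target genes had 12 of 14 members tested and a median log2 fold change of -0.23. PGR, the progesterone receptor, was at 95.5, 120.6 and 114.4 CPM on day 0 and 25.5, 77.5 and 12.8 CPM on day 3 (log2 fold change -1.51 ± 0.56 SE, adjusted p = 0.2698, edgeR). ESR1, the oestrogen receptor alpha, was at 1122, 894.2 and 1106 CPM and then at 393.5, 836.6 and 287.1 CPM (-1.04 ± 0.33 SE, adjusted p = 0.1946, edgeR). In both receptors every day 3 library lay below every day 0 library, as in 11.0% of all genes tested. Library 2 was just below and library 3 farthest. PGRMC1, a membrane-associated progesterone receptor component, was at 271.6, 250.8 and 333.4 CPM and then at 542.4, 378.6 and 660.9 CPM (0.89 ± 0.26 SE, adjusted p = 0.1485, edgeR). FKBP5, an immunophilin of steroid receptor complexes that progestins and glucocorticoids induce, was at 43.3, 32.6 and 28.6 CPM and then at 73.9, 40.8 and 144.1 CPM, where library 2 of day 3 lay within the day 0 range (1.31 ± 0.41 SE, adjusted p = 0.2007, edgeR).

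Protein folding genes of the endoplasmic reticulum all had log2 fold changes below 0, 6 of 6, with a median of -1.07. Of them, 4 were at an unadjusted p under 0.05 (edgeR), beside 6.49% of all genes tested that were lower on day 3 at that p. These genes were measured in the same 6 libraries and are not independent of each other. Their summed level was 7222 to 11363 CPM on day 0 and 2201 to 6888 CPM on day 3. The days overlapped in HSP90B1 (-1.08), PDIA4 (-1.08), DNAJB9 (-0.24) and XBP1 (-0.18), and did not in the 2 genes that follow. HSPA5, the chaperone BiP, was at 1450, 1805 and 2186 CPM and then at 815.5, 1343 and 417.2 CPM (-1.08 ± 0.40 SE, adjusted p = 0.2733, edgeR). CALR, calreticulin, was at 2426, 2424 and 3179 CPM and then at 1225, 1866 and 735.2 CPM (-1.07 ± 0.35 SE, adjusted p = 0.2217, edgeR). Library 3 of day 3, the lowest for OVGP1, was also the lowest for both chaperones, and the part of that library in these values was not tested.

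For the cell cycle, 7 of 11 genes were tested, and the median log2 fold change was -2.61. In 6 it was below 0 with every day 3 library below every day 0 library, beside 11.0% of all genes tested. These genes were measured in the same 6 libraries and are not independent of each other. Library 2 of day 0 stood above the others. TOP2A, the topoisomerase of dividing cells, was at 16.6, 126.9 and 22.0 CPM on day 0 and 5.96, 12.3 and 2.59 CPM on day 3 (-2.99 ± 1.19 SE, adjusted p = 0.2932, edgeR). CDK1, the mitotic kinase, was at 5.73, 34.1 and 7.17 CPM and then at 2.61, 2.72 and 0.696 CPM. ACTC1, a cardiac-type actin on the muscle protein list, had the same library on top, with 7.67, 80.3 and 13.3 CPM on day 0 and 5.02, 0.981 and 3.78 CPM on day 3.

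Extracellular matrix genes were divided, with 7 of the 11 tested below 0, 4 above and a median of -0.53. The fibrillar collagen gene COL3A1 was at 5513, 4453 and 5912 CPM on day 0 and 2518, 3972 and 1542 CPM on day 3 (-0.98 ± 0.64 SE, adjusted p = 0.5506, edgeR). COL5A1 was at 441.6, 388.6 and 458.0 CPM and then at 226.1, 247.6 and 122.5 CPM (-1.11 ± 0.45 SE, adjusted p = 0.3027, edgeR). POSTN, periostin, stood on the other side, with 62.0, 67.2 and 79.0 CPM and then 68.6, 165.7 and 215.6 CPM, and its days overlapped. Of 6 prostaglandin genes, PTGS2, the inducible cyclooxygenase, was at 1.72, 6.91 and 8.0 CPM and then at 0.836, 2.18 and 1.19 CPM, and PTGES, a terminal prostaglandin E synthase, was at 8.82, 7.20 and 15.5 CPM and then at 66.7, 11.7 and 23.0 CPM. In both of these genes the days overlapped.

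Marker lists of the tissue's cell types gave medians near that of all genes for ciliated cells and smooth muscle. The 4 ciliated cell markers tested all had log2 fold changes below 0, with a median of -0.18. Their summed level was 1807 to 2254 CPM on day 0 and 1565 to 1951 CPM on day 3. The 6 smooth muscle markers had a median of 0.07 and sums of 15254 to 25798 and 13236 to 24811 CPM, and the 4 stromal markers -0.45, with 5018 to 7015 and 1999 to 5124 CPM. The 2 endothelial markers had a median of -0.42. Of the 6 genes listed for secretory epithelium 2 were tested, OVGP1 (0.06) and EPCAM. EPCAM was not particular to the oviduct: scaled over all 66 libraries, it was at 346.1 to 436.3 CPM there and 402.2 to 601.6 CPM in the endometrium. EPCAM was at 409.8, 362.8 and 378.2 CPM on day 0 and 431.3, 448.3 and 427.0 CPM on day 3 (0.18 ± 0.18 SE, adjusted p = 0.7125, edgeR). Every day 3 library of EPCAM lay above every day 0 library, as in 11.3% of all genes tested. Immune markers were low on both days: 3 T cell genes summed to 6.87 to 8.83 and 5.77 to 7.36 CPM, and 3 macrophage genes to 12.3 to 19.7 and 11.2 to 17.1 CPM. The 2 ovarian markers summed to 20.3 to 76.7 and 16.7 to 88.5 CPM, with the high values in library 3 of each day, and HBB, a blood marker, was at 3.74 to 16.8 and 9.59 to 20.7 CPM. The part of these cells in the called genes was not tested.

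**Figure D4:**
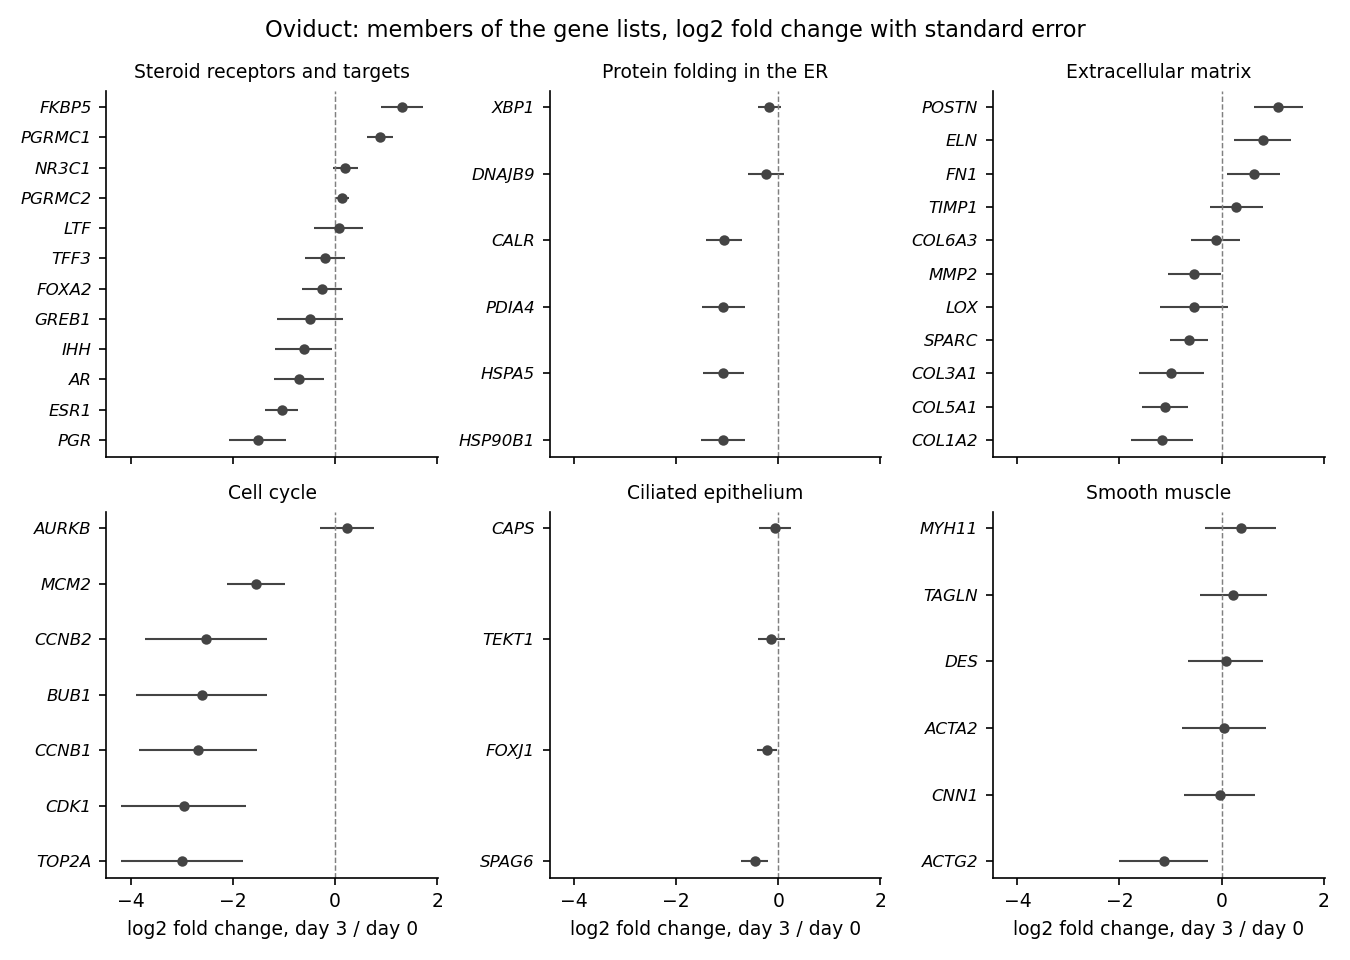
Log2 fold change of day 3 against day 0 (horizontal axis, points) with its standard error (lines) for the tested members of 6 gene lists, 1 row per gene, with a dashed line at 0. The 6 protein folding genes lie below 0, from -1.08 to -0.18, and 6 of the 7 cell cycle genes lie below 0 with wide errors. The 4 ciliated markers also lie below 0, from -0.46 to -0.07, and smooth muscle markers lie around 0 apart from ACTG2 at -1.13.

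The later days of the cycle were set beside day 3 as a description, with no test, because every such difference uses the same day 0 libraries. The upregulated genes had a median log2(CPM + 1) difference to day 0 of 1.84 at day 3, which was 0.85 at day 6, 0.83 at day 9 and 0.56 at day 12, and then 0.38 at day 15 and 0.25 at day 18. The downregulated genes were at -1.60, -1.75, -1.40, -1.60, -1.41 and -0.89 on the same days. The median of the upregulated genes was nearer to day 0 on each later day, while that of the downregulated genes stayed at -1.40 or lower until day 15. The genes were chosen on the day 0 and day 3 libraries, so the size of the day 3 medians is not a finding. That choice also shapes the courses. Values that were extreme on day 3 in part fall back later, and values extreme on day 0 set all later days apart from it. The difference between the 2 courses is thus not a finding either.

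Single genes followed distinct courses. PBX4 was high on day 3 only, with 32.9 to 35.7 CPM there, 12.6 to 18.8 CPM on day 6 and a highest later library of 30.8 CPM on day 15. RLBP1 was at 2.56 to 8.58 CPM on day 6 and 1.51 to 6.06 CPM on day 9, and at most 0.364 CPM from day 12 on. GALNT9 was at 4.03 and 46.99 CPM in the libraries of day 6, 11.3 to 48.6 CPM on day 9, 0.595 to 6.02 CPM on day 12 and 0.0976 to 1.20 CPM on day 18.

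ISM1 stayed above every day 0 library on days 6 to 18, with its lowest library, 7.81 CPM, on day 18. SLC27A3 was likewise above day 0 throughout, from 12.1 to 35.6 CPM over days 6 to 18. The level of ENSSSCG00000011452 was 10.3 to 15.8 CPM on day 6, so that the high values of 2 day 3 libraries had no counterpart 3 days later.

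Among the downregulated genes, REXO2 was at 18.3 to 19.1 CPM on day 6, 10.8 to 23.1 CPM on day 12 and 79.7 to 305.6 CPM on day 18, where it again spanned the day 0 range. HDC remained at or below 3.94 CPM on days 6 to 15 and was at 1.16 to 10.5 CPM on day 18. PAPPA2 and LRAT were still low on day 18, at 2.95 to 18.4 CPM and 2.77 to 11.4 CPM. SLCO4C1 and ID2 had their lowest medians on day 3 and overlapped the day 0 range on day 18, at 10.7 to 17.7 CPM and 43.5 to 62.1 CPM.

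**Figure D5:**
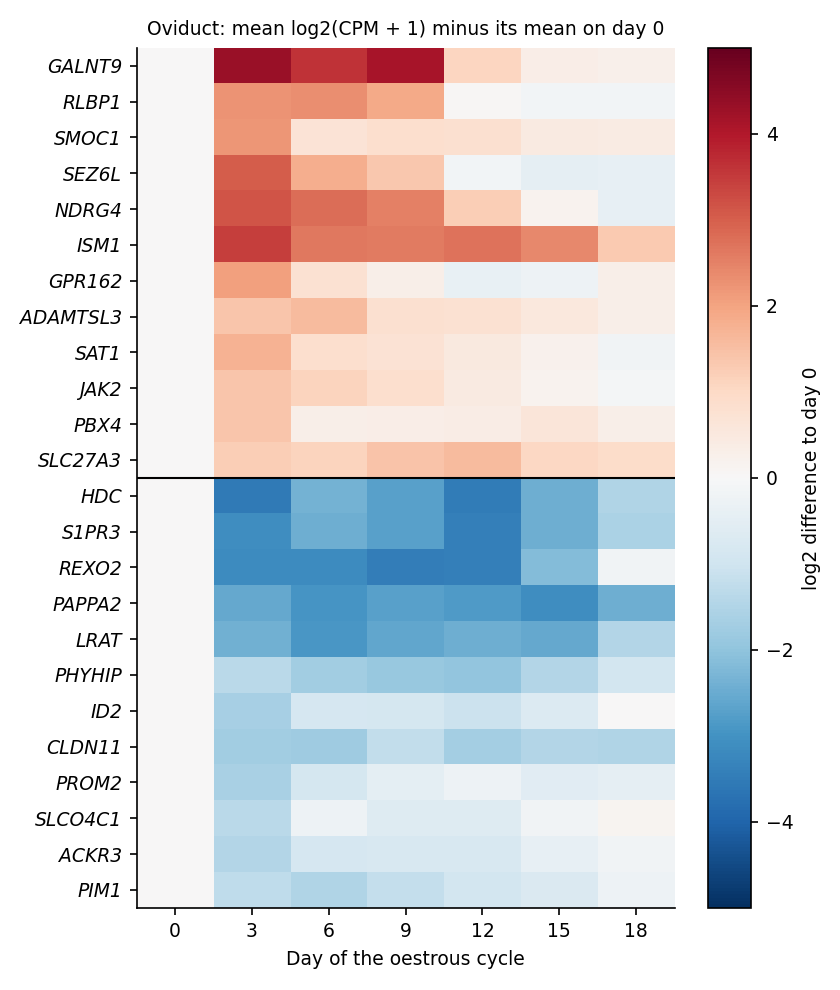
Mean log2(CPM + 1) of the 24 named genes on each day of the cycle (horizontal axis) minus the mean on day 0, in colour (red above, blue below day 0), with the 12 upregulated genes above the line and the 12 downregulated genes below it. GALNT9, NDRG4 and RLBP1 stay high to day 9, PBX4 only on day 3, and REXO2 and ID2 are near day 0 on day 18.

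The steroid receptors and chaperones had courses of their own, shown for genes picked after their values were seen. PGR was at 11.8 to 14.4 CPM on day 6, 12.4 to 14.9 CPM on day 12 and 57.5 to 181.3 CPM on day 18. HSPA5 was at 353.4 to 441.4 CPM on day 6 and 818.4 to 2573 CPM on day 18. In both genes libraries 1 and 2 of day 3 lay above the day 6 libraries. OVGP1 was at 2920 to 22202 CPM on day 6, so that libraries 1 and 2 of day 3 were above that range and library 3 was within it.

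Whether the change was particular to the oviduct was tested as a difference of changes in 1 model over the 66 libraries. The study took the 3 tissues from the gilts of each day, the columns do not tie tissues to a gilt, and the model treated all libraries as independent. Against the endometrium, the day 3 change differed in 5 of 16934 genes (0.0295%), 4 with a higher change in the oviduct and 1 with a lower one, and 885 genes were at an unadjusted p under 0.05. The count was 1 to 19 when single libraries were left out, 19 without oviduct day 3 library 2 and 8 without endometrium day 0 library 1, and 1 without any one of the other 5 oviduct or the other 5 endometrium libraries. Of the 5 genes, 2 were among the 47, both without a symbol. The 47 were chosen for their change in the same oviduct libraries, which raises their share among differing genes.

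ENSSSCG00000011452, upregulated in the oviduct, was at 20.3 to 27.5 CPM in the endometrium on day 0 and 17.3 to 32.0 CPM on day 3, a difference of changes of 3.93 ± 0.77 (SE, log2, adjusted p = 0.0377, edgeR). ENSSSCG00000009206, downregulated in the oviduct from 4.57 to 7.56 CPM down to 1.19 to 1.42 CPM, was at 0.525 to 1.54 CPM in the endometrium on day 0 and 1.41 to 2.83 CPM on day 3, a difference of -3.13 ± 0.51 (SE, adjusted p = 0.00222, edgeR). The named genes nearest to the threshold were SLCO4C1, with a difference of -2.85 ± 0.60 (SE, adjusted p = 0.0523, edgeR), and SEZ6L, with 5.93 ± 1.33 (SE, adjusted p = 0.0847, edgeR).

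In the endometrium itself the day 3 change was tested for 18 of the 20 upregulated and 26 of the 27 downregulated genes. Of these, 13 and 17 had a change of the same direction as in the oviduct, 72.2% and 65.4%, beside 56.4% and 53.5% of all genes with the same oviduct direction. Of the 47, 2 were called in the endometrium, where 0.339% of genes were called, both downregulated and without a symbol, and 14 of the 44 tested were at an unadjusted p under 0.05, beside 9.00% of all genes tested there. One of them, ENSSSCG00000024493, was at 323.1 to 403.9 CPM in the oviduct on day 0 and 46.1 to 105.6 CPM on day 3, and at 28.3 to 33.5 and 10.5 to 14.8 CPM in the endometrium. HDC was at 27.0 to 35.0 CPM in the endometrium on day 0 and 1.46 to 12.2 CPM on day 3 (-2.25 ± 0.999 SE, adjusted p = 0.494, edgeR).

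Against the ovary, of which day 3 has 2 libraries, the change differed in 719 genes (4.25%), among them 11 of the 20 upregulated and 8 of the 27 downregulated genes. The count ranged from 13 without ovary day 3 library 3 to 1367 without ovary day 0 library 3. It was 279 and 427 without ovary day 0 libraries 1 and 2, 274 and 417 without oviduct day 0 libraries 2 and 3, and 340 without oviduct day 3 library 1. Named genes with a different change were REXO2, NDRG4, GPR162, GALNT9, SMOC1 and ADAMTSL3. REXO2 was at 56.7 to 127.7 CPM in the ovary on day 0 and 106.1 and 131.4 CPM on day 3, a difference of -3.55 ± 0.73 (SE, log2, adjusted p = 0.00525, edgeR). GALNT9 was at 0.0955 to 1.67 CPM in the ovary on day 0 and 0.0969 and 0.453 CPM on day 3. In the ovary's own comparison, in which 0.179% of genes were called, edgeR called 0 of the 47 genes, and 5 of the 45 tested were at an unadjusted p under 0.05, beside 17.5% of all genes tested there. A change of the same direction as in the oviduct was found in 42.1% of the upregulated and 61.5% of the downregulated genes tested, beside 42.0% and 48.4% of all genes with the same oviduct direction.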

How the data were processed

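The deposited table holds raw read counts, not normalized by the authors, for 25322 Ensembl pig genes in 66 libraries (67 samples in the labels). They removed the leading bases of the paired-end reads and aligned them with tophat2 to the Ensembl pig assembly. The submitters' processing notes name featureCounts without settings, and the labels and the methods name different kits, one stranded and one not, so reads of overlapping antisense genes cannot be told apart. The study used 3 gilts per day, but columns carry no animal, so p-values measure the spread between these libraries. The oviduct has 4 libraries on day 12 and 4 on day 15, more than the 3 gilts described, and 2 on day 6. Whether libraries of day 12 or day 15 share a gilt is not known. The fit treated all oviduct libraries as independent, and the effect of a shared gilt on the spread was not tested.

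Genes passing edgeR's filterByExpr (4.0.16) in the 22 oviduct libraries were scaled by TMM and fitted with day as a factor. The robust quasi-likelihood test was adjusted by Benjamini-Hochberg over 15665 genes (threshold 0.05). SE was derived from the log2 fold change and the F statistic. Differences between tissues were contrasts in 1 model of all 66 libraries, and CPM of the endometrium and ovary are scaled over all of them. Alternatives were DESeq2 1.42.0, its size factors, no filter, a fit of 6 libraries, a replicate block and leaving out each library. Count intervals are exact (95%) and cover counting error only. The rule for naming took the 12 largest rises and 12 largest falls that had a symbol, no overlap of days and 10 counts or more in all libraries of the higher day. Symbols came from reference tables for 11804 identifiers. The genes, lists and comparisons were chosen with earlier results of these data known. No 2 of the compared libraries of 1 day were identical. In simulated data the oviduct test recovered 20, 39, 46 and 48 of 50 genes changed 2-, 4-, 8- and 16-fold, with 11 false calls over 15474 genes. On the same simulated data DESeq2 recovered 27, 44, 48 and 49, with 33 false calls. Only genes above 1 CPM on day 0 of the oviduct were changed, and the days did not differ otherwise. Genes as low on day 0 as GALNT9, RLBP1 and SMOC1 were thus not covered, and the rates need not hold for the real data.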

Additional observations from a re-analysis of the deposited data

Results flagged for a closer look

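The following values were picked out for single libraries that stand apart or for a change that differs between tissues. No explanation was tested for any of them.

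In groups of 4 oviduct libraries, 8 of the 70 tested had 1 library set apart by Dixon's criterion. Its nominal rate of about 1 in 20 holds for independent groups of normally distributed values. These groups are genes measured in the same libraries of days 12 and 15, so the count cannot be set against that rate. ISM1 had a library at 75.4 CPM on day 12 (next 39.1) and one at 133.2 CPM on day 15 (next 24.5). GALNT9 had one at 6.02 CPM on day 12 (next 1.45). On day 15 SEZ6L had one at 3.21 CPM (next 0.705), GPR162 one at 1.70 CPM (next 0.477), ENSSSCG00000009206 one at 1.53 CPM (next 0.893) and ENSSSCG00000011452 one at 24.4 CPM (next 11.6). ENSSSCG00000027715 had one at 10.7 CPM on day 12 (next 4.73).

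The day 3 change differed between oviduct and endometrium (edgeR, difference of log2 changes ± SE) in ENSSSCG00000009206, by -3.13 ± 0.51 (adjusted p = 0.00222), and in ENSSSCG00000011452, by 3.93 ± 0.77 (adjusted p = 0.0377).

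Against the ovary the differences were positive for GALNT9 (8.64 ± 2.23, adjusted p = 0.0201, edgeR), ENSSSCG00000027715 (5.05 ± 1.20, adjusted p = 0.0119), SMOC1 (4.90 ± 1.46, adjusted p = 0.0429), ENSSSCG00000011452 (4.32 ± 0.85, adjusted p = 0.00356), NDRG4 (3.93 ± 1.08, adjusted p = 0.0282), GPR162 (3.41 ± 0.80, adjusted p = 0.0114), ADAMTSL3 (3.17 ± 0.78, adjusted p = 0.0146) and CTTNBP2 (2.13 ± 0.63, adjusted p = 0.0424). They were negative for REXO2 (-3.55 ± 0.73, adjusted p = 0.00525, edgeR), ENSSSCG00000009206 (-2.12 ± 0.49, adjusted p = 0.0103), ENSSSCG00000024493 (-1.72 ± 0.46, adjusted p = 0.0228) and NR2F6 (-1.26 ± 0.35, adjusted p = 0.0281). GALNT9 rests on few counts in the ovary and on day 0 of the oviduct. Day 3 of the ovary has 2 libraries, and without its library 3 the count of genes that differ from the ovary was 13 in place of 719.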

How the results depend on the processing

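The count of 47 calls differed by tool, by the libraries fitted and by leaving out single libraries, while the direction of the 24 named genes was the same under every alternative that gave a value. DESeq2's test called 297 genes, 147 higher and 150 lower on day 3, 204 of them at least 2-fold, and the fit of the 6 libraries called 12, 4 higher and 8 lower, all 12 at least 2-fold. Leaving out 1 library gave 0 to 166 calls, 0 to 93 higher, 0 to 73 lower and 0 to 145 at least 2-fold; the highest values came without library 2 of day 3. DESeq2 size factors in edgeR gave 42 and no filter 40. Of the named genes, 24 were called by DESeq2, 21 without library 2 of day 3 and 4 of 23 in the fit of 6 libraries. The labels do not say whether libraries of the same number, 1 to 3, share anything across days. Correlations of deviations of same-numbered libraries were 0.084, -0.073 and -0.14, and those of unlike-numbered libraries ran from -0.111 to 0.159. What the number stands for was not tested. With that number as a replicate block 32 genes were called, 13 of them higher, and 28 of the 47 were among them.

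Against the endometrium, the 5 differing genes became 24 with DESeq2, 1 without the filter, 1 with the replicate block, 1 with days 0 and 3 alone and 1 to 19 when a library was left out. Against the ovary, 719 became 1275 with DESeq2, 821 with the block and 13 to 1367 when a library was left out. With a pseudocount of 0.1 the median difference to day 0 was 1.18 for upregulated genes on day 6, and -1.74 and -1.56 for downregulated genes on days 3 and 9. Mean correlations within day 0, within day 3 and between them were then 0.965, 0.953 and 0.944, and 0.866, 0.804 and 0.753 over the 500 most variable genes, with the same order. The cause of these shifts was not tested. At this depth, levels on 1 to 3 counts, as for HDC on day 3, are uncertain.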

Other observations

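A few secreted proteins had widely differing levels among animals of the same day and were picked after their values were seen. SPP1, osteopontin, a secreted glycoprotein, was at 11389, 8106 and 9062 CPM in libraries 1, 2 and 3 of day 0 and at 4632, 8760 and 826.7 CPM on day 3 (log2 fold change -1.01 ± 0.65 SE, adjusted p = 0.5539, edgeR). CLU, the secreted chaperone clusterin, was at 4809, 4295 and 4682 CPM and then at 4519, 5662 and 2162 CPM (-0.16 ± 0.50 SE, adjusted p = 0.9297, edgeR). In both genes library 3 of day 3 was the lowest of the 6. LCN2, the iron-binding defence protein lipocalin, was high in 1 library of day 0, with 109.9, 513.1 and 169.1 CPM against 128.3, 102.0 and 78.2 CPM on day 3. Its days overlapped (-1.36 ± 0.68 SE, adjusted p = 0.4136, edgeR).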
